A study of Saccharomyces cerevisiae with 12 samples.

Results

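The 10 genes of the methionine and S-adenosylmethionine cycle were followed through ribosome footprints and poly(A) mRNA of budding yeast (Saccharomyces cerevisiae, strain SK1), 10 of the 6159 genes measured. They are MET2 (YNL277W), MET17 (YLR303W), MET6 (YER091C), SAM1 (YLR180W), SAM2 (YDR502C), SAH1 (YER043C), MHT1 (YLL062C), SAM4 (YPL273W), MUP1 (YGR055W) and MMP1 (YLL061W). They were taken by name as the enzymes and permeases of the cycle, and the group was picked because MET2, MET17 and MHT1 were lower in Dbp1 than in Ded1 cells. The group was thus selected on the mRNA and footprint fold changes of Dbp1 against Ded1, and Dbp1 against Ded1 is given here as a description, without a test. The stated aim was to compare the specificity of Ded1 and Dbp1, paralogous DEAD-box RNA helicases that act in translation initiation, at matched helicase levels. The 2xDbp1 cells carried DBP1 in 4 copies, Dbp1 cells had DBP1 and Ded1 cells had DED1, each under the regulatory regions of DED1. All cultures grew at 30 °C in YEPD, were harvested at an optical density of 0.6, and had first been given 100 µM cycloheximide for 1 minute. YEPD is a rich medium, so methionine was supplied to all 3 genotypes. Each genotype had 2 mRNA and 2 footprint libraries (n = 2 in each of 6 groups). Separate cultures for the replicates are not stated in the labels, so p-values measure only the spread between these libraries, which may be technical.

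Yeast makes methionine from homoserine and sulfide. Homoserine is acetylated, the acetyl group is exchanged for sulfide to give homocysteine, and homocysteine is methylated to methionine. Methionine is then joined to ATP to make S-adenosylmethionine (SAM), the methyl donor of most cellular methylations. Each methyl transfer leaves S-adenosylhomocysteine, which is split back to homocysteine and adenosine. Much of the sulfur pathway is transcribed under the activator Met4, which is restrained when sulfur amino acids are plentiful.

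The values are RPKM, reads per kilobase of gene, scaled to the depth of the library, so levels of different genes can be set side by side per length. Read depth was recovered from the steps between low values as 5.997 to 8.497 M reads in mRNA libraries and 8.70 to 13.1 M in footprint libraries. DED1 mRNA was 1.81 to 1.86 RPKM in 2xDbp1, 2.74 to 2.81 RPKM in Dbp1 and 61.5 to 63.0 RPKM in Ded1 libraries, which fits the labels. DBP1 mRNA was 153 to 156 RPKM in 2xDbp1, 100.4 to 105 RPKM in Dbp1 and 4.26 to 5.12 RPKM in Ded1 libraries. Of 12 general stress genes, the summed mRNA level was 324 and 315 RPKM in 2xDbp1, 1046 and 665 RPKM in Dbp1, and 196 and 232 RPKM in Ded1 libraries. That sum therefore moved with genotype, and its part in the results on the sulfur genes was not tested. Of the 10 meiotic genes checked, the summed mRNA level stayed between 24.5 and 31.7 RPKM in all 6 libraries, and of the 5 mating genes between 13.5 and 20.6 RPKM. TRP1, a gene often used as a strain marker, averaged 6.11 RPKM in 2xDbp1, 75.6 RPKM in Dbp1 and 76.9 RPKM in Ded1 mRNA, so the 2xDbp1 cells also differed from the others at that gene. The part of TRP1 in the results was not tested.

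In Ded1 cells the cycle genes covered a wide range of levels per length. SAM4 had the highest mRNA level of the 10, with a mean of 1387 RPKM, percentile 96.3 of 5198 genes. SAH1 followed at 573 RPKM, SAM1 at 391, SAM2 at 383, MET17 at 185, MUP1 at 136 and MET6 at 88.6 RPKM, all above the median gene at 58.3 RPKM. MET2 at 39.0, MHT1 at 21.8 and MMP1 at 11.4 RPKM lay below that median. Of neighbours in this order, SAM1 and SAM2 overlapped in their Ded1 libraries, and MET17 and MUP1, and MUP1 and MET6, were closer at their nearest libraries than the replicates of MUP1. The other neighbours were further apart than their replicates. In footprints SAH1 led with a mean of 1931 RPKM, SAM1 had 937, SAM2 782, SAM4 579.8, MET17 473 and MET6 396 RPKM, against 40.5 RPKM for the median gene. SAM4 was thus behind SAM1 and SAM2 in footprints although its mRNA level was the highest.

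The ratio of footprint to mRNA RPKM, a measure of translational efficiency, separated the same genes in another way. In Ded1 cells MET6, the cobalamin-independent methionine synthase, had 4.46 and 4.47 footprints per mRNA, rank 49 from the top of 4785 genes. SAH1 had 3.40 and 3.33 footprints per mRNA (rank 96), MET17 2.60 and 2.53, SAM1 2.34 and 2.45, and SAM2 2.12 and 1.96. These 5 enzymes of homocysteine, methionine and SAM turnover lay at percentile 93.1 or above, against a median gene of 0.662 footprints per mRNA. MET2 had 0.459 and 0.488 footprints per mRNA (percentile 29.4), and SAM4 had 0.394 and 0.438 (percentile 22.7). The permeases and MHT1 were in between, from 0.780 in a MHT1 library to 1.13 in a MUP1 library.

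**Figure D1:**
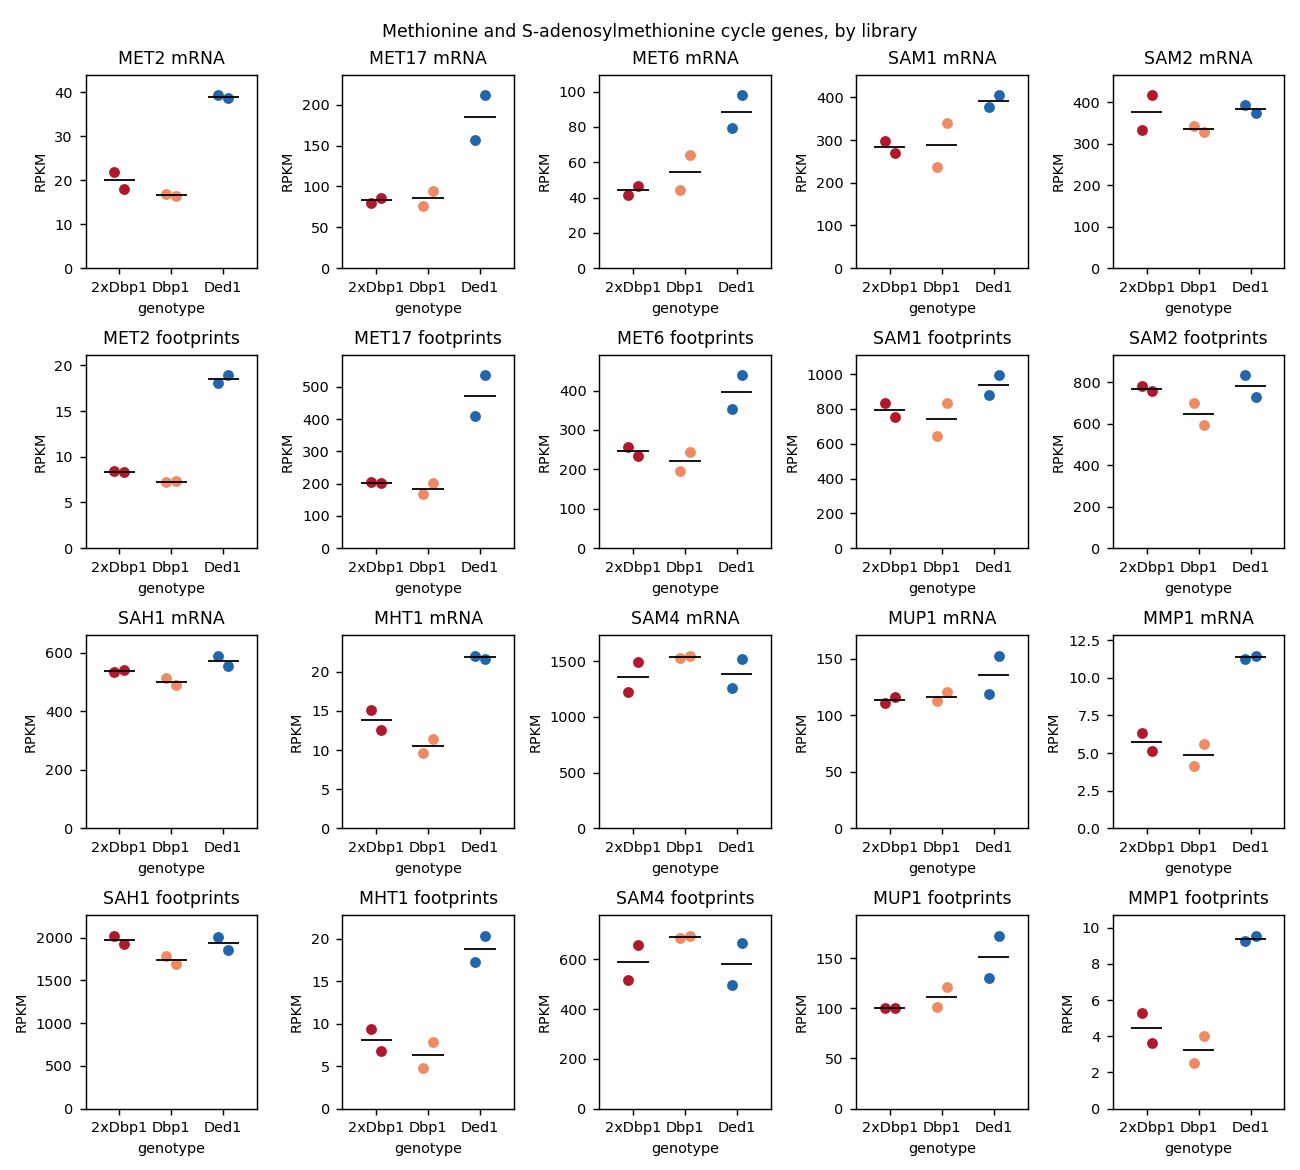
RPKM of the 10 genes in each mRNA and footprint library, 1 panel per gene and library type, with 2xDbp1, Dbp1 and Ded1 from left to right. Points are single libraries, lines are means of 2 libraries, and every linear axis starts at 0. MET2, MET17, MET6, SAM1, MHT1 and MMP1 have both Ded1 libraries above all 4 others in both library types, while SAM2, SAH1 and SAM4 lie close together.

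MET2, homoserine O-acetyltransferase, starts the branch from homoserine. Its mRNA level was 21.9 and 18.1 RPKM in 2xDbp1, 16.8 and 16.4 RPKM in Dbp1, and 39.3 and 38.7 RPKM in Ded1 libraries. Its footprints were 8.40 and 8.34 RPKM in 2xDbp1, 7.20 and 7.34 RPKM in Dbp1, and 18.1 and 18.9 RPKM in Ded1 libraries. The Ded1 libraries were the highest in both library types, without overlap. Replicates of a genotype lay close together in footprints, while the 2xDbp1 mRNA replicates differed by 0.26 on the log2 scale. These are bulk cultures, so fewer cells with a transcript and less of it per cell cannot be told apart. MET17, O-acetylhomoserine sulfhydrylase, makes homocysteine from the MET2 product and sulfide. MET17 mRNA was 79.9 and 86.4 RPKM in 2xDbp1, 76.6 and 94.7 RPKM in Dbp1, and 157 and 212 RPKM in Ded1 libraries. MET17 footprints were 205 and 201 RPKM in 2xDbp1, 168 and 201 RPKM in Dbp1, and 410.0 and 535 RPKM in Ded1 libraries. MET17 was thus lowest in Dbp1 and 2xDbp1 alike, and Ded1 replicate 2 stood above Ded1 replicate 1 in both library types.

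MET6 makes methionine by moving the methyl group of 5-methyltetrahydrofolate to homocysteine. MET6 mRNA was 41.7 and 46.7 RPKM in 2xDbp1, 44.4 and 64.0 RPKM in Dbp1, and 79.3 and 98.0 RPKM in Ded1 libraries. MET6 footprints were 257 and 235 RPKM in 2xDbp1, 197 and 244 RPKM in Dbp1, and 354 and 438 RPKM in Ded1 libraries. Both Ded1 libraries again lay above the other 4, and the Dbp1 mRNA libraries differed from each other by 0.52 on the log2 scale, the widest replicate gap of MET6. MHT1, S-methylmethionine-homocysteine methyltransferase, makes methionine from S-methylmethionine instead. MHT1 mRNA was 15.2 and 12.5 RPKM in 2xDbp1, 9.66 and 11.4 RPKM in Dbp1, and 22.1 and 21.6 RPKM in Ded1 libraries. MHT1 footprints were 9.36 and 6.82 RPKM in 2xDbp1, 4.73 and 7.80 RPKM in Dbp1, and 17.2 and 20.3 RPKM in Ded1 libraries. These MHT1 levels rest on few reads, from about 42 in Dbp1 footprint replicate 1 to about 244 in Ded1 footprint replicate 2. The 95% Poisson intervals of those libraries, which cover counting error only, were 3.41 to 6.39 RPKM and 17.9 to 23.1 RPKM.

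SAM4 is the second homocysteine methyltransferase and uses SAM as its methyl donor. SAM4 mRNA was 1224 and 1496 RPKM in 2xDbp1, 1524 and 1550.4 RPKM in Dbp1, and 1258 and 1516 RPKM in Ded1 libraries. SAM4 footprints were 518 and 659 RPKM in 2xDbp1, 684 and 694 RPKM in Dbp1, and 496 and 664 RPKM in Ded1 libraries. The 2xDbp1 and Ded1 libraries overlapped, and SAM4 was the only one of the 10 genes with its Dbp1 libraries above both Ded1 libraries.

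SAM1 and SAM2 encode the SAM synthetase paralogs. Their sequences are closely related and can share reads, so the split between them is uncertain. SAM1 mRNA was 297 and 271 RPKM in 2xDbp1, 238 and 341 RPKM in Dbp1, and 376 and 405 RPKM in Ded1 libraries. SAM2 mRNA was 334 and 417 RPKM in 2xDbp1, 343 and 328 RPKM in Dbp1, and 393 and 373 RPKM in Ded1 libraries. SAM1 was below both Ded1 libraries in all 4 others, whereas the SAM2 libraries of 2xDbp1 and Ded1 overlapped. SAM1 footprints ran from 646 to 836 RPKM in the 2xDbp1 and Dbp1 libraries, against 882 and 992 RPKM in Ded1 libraries. SAM2 footprints were 782 and 757 RPKM in 2xDbp1, 699.6 and 592 RPKM in Dbp1, and 833 and 730.3 RPKM in Ded1 libraries. The SAM1 to SAM2 ratio of mRNA levels was 0.888 and 0.649 in 2xDbp1, 0.693 and 1.04 in Dbp1, and 0.957 and 1.08 in Ded1 libraries, which overlap between Dbp1 and Ded1. SAH1, S-adenosylhomocysteine hydrolase, closes the cycle. SAH1 mRNA was 535 and 541 RPKM in 2xDbp1, 513 and 489 RPKM in Dbp1, and 590.2 and 556 RPKM in Ded1 libraries. SAH1 footprints were 2021 and 1925 RPKM in 2xDbp1, 1789 and 1687 RPKM in Dbp1, and 2009 and 1852 RPKM in Ded1 libraries. SAH1 mRNA was without overlap between genotypes, but the whole spread from lowest to highest library was small beside that of MET17.

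MUP1 is the high-affinity methionine permease and MMP1 the high-affinity S-methylmethionine permease. MUP1 mRNA was 111 and 116 RPKM in 2xDbp1, 113 and 120.3 RPKM in Dbp1, and 119 and 153 RPKM in Ded1 libraries. MUP1 footprints were 100.2 and 100.0 RPKM in 2xDbp1, 102 and 122 RPKM in Dbp1, and 131 and 173 RPKM in Ded1 libraries. Ded1 replicate 2 was the highest MUP1 library in both types, and Ded1 replicate 1 lay between the Dbp1 libraries in mRNA. MMP1 mRNA was 6.31 and 5.17 RPKM in 2xDbp1, 4.14 and 5.57 RPKM in Dbp1, and 11.2 and 11.5 RPKM in Ded1 libraries. MMP1 footprints were 5.27 and 3.64 RPKM in 2xDbp1, 2.49 and 3.997 RPKM in Dbp1, and 9.24 and 9.56 RPKM in Ded1 libraries. Its Ded1 libraries stood above all others, with about 41 to 212 reads in a footprint library. MMP1 is the immediate neighbour of MHT1 in the R64 gene table, and both act on S-methylmethionine. The MHT1 to MMP1 ratio of mRNA levels was 2.40 and 2.43 in 2xDbp1, 2.33 and 2.05 in Dbp1, and 1.96 and 1.88 in Ded1 libraries, with both Ded1 libraries below the other 4. In footprints the ratio ran from 1.78 to 2.13 and the genotypes overlapped.

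The first comparison sets 2xDbp1 cells, with DBP1 footprints above those of DED1 in Ded1 cells, against Ded1 cells. MET2, MET17, MET6, MHT1 and MMP1 stood at 0.435 to 0.648 of their Ded1 level in 2xDbp1 cells on the fitted scale, and SAM4, SAM2 and SAH1 at 0.939 to 1.02. The comparison uses the same Ded1 libraries as the one that chose the group, so it is not independent of that choice. Fold changes are differences of log2(RPKM + 1) from limma, which understate the change of low genes, and p-values were adjusted by Benjamini-Hochberg over all genes. In footprints MET2 fell, with a log2 fold change of -1.06 (SE 0.106, a fold of 0.481, limma adjusted p = 0.0423). That was 1 of the 10 genes, where 0.0621% of the 4830 genes tested in footprints were called. The MET2 call needed all 4 libraries compared, since the limma adjusted p was 0.411 without 2xDbp1 replicate 1, 0.461 without 2xDbp1 replicate 2, 0.182 without Ded1 replicate 1 and 0.249 without Ded1 replicate 2. It was also 0.0618 with no filter on low values, and 0.0638 with same-numbered libraries as a replicate block. The log2 fold change itself stayed between -1.09 and -1.02 when any 1 of the 4 compared libraries was left out.

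Other footprint differences of similar size did not pass. MET17 was at -1.20 on the log2 scale (SE 0.145, limma adjusted p = 0.085) and MHT1 at -1.13 (SE 0.236, limma adjusted p = 0.269). With the replicate block the limma adjusted p of MET17 was 0.0463. With 1 library left out, the MET17 log2 fold change ran from -1.39 to -1.01, and whether MET17 passed depended on the library left out. MET17, MHT1 and MET2 had ranks 5, 6 and 7 from the lowest of the 4830 footprint fold changes. MMP1, at -0.95 (SE 0.228), met the minimum mean only through its Ded1 libraries, where it is high, so its difference is given as a value and it is left out of the count and median that follow. MET6 was at -0.68 (SE 0.143), MUP1 at -0.58 (SE 0.149) and SAM1 at -0.23 (SE 0.135), with limma adjusted p = 0.269, 0.343 and 0.6. SAM2 at -0.02, SAH1 at +0.03 and SAM4 at +0.03 had intervals from -0.28 to 0.24, from -0.16 to 0.22 and from -0.36 to 0.42. Both 2xDbp1 libraries were below both Ded1 libraries for 6 of the other 9 genes, where 19.7% of all genes tested showed this. The 6 include MET2, MET17 and MHT1, which were picked as lower than these same Ded1 libraries, so that part was expected from the choice. Of the genes not behind the pick, MET6, MUP1 and SAM1 were below, while SAM2, SAH1 and SAM4 overlapped. The median log2 fold change of these 9 genes was -0.58, against +0.01 for all genes.

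In mRNA none of the 10 genes passed in 2xDbp1 against Ded1, where 0.077% of 5198 genes were called and 15.1% had an unadjusted p under 0.05. MET2 came nearest, at -0.94 on the log2 scale (SE 0.12, limma adjusted p = 0.051). MET17 was at -1.13 (SE 0.163, limma adjusted p = 0.0772) and MET6 at -0.98 (SE 0.183, limma adjusted p = 0.178). With the replicate block the limma adjusted p was 0.0189 for MET17 and 0.037 for MET6. MMP1 was at -0.88 (SE 0.203), MHT1 at -0.63 (SE 0.147) and SAM1 at -0.46 (SE 0.164), with limma adjusted p = 0.215, 0.215 and 0.295. MET17, MET6, MET2 and MMP1 had ranks 9 to 12 from the lowest of 5198 mRNA fold changes. MUP1 at -0.24, SAH1 at -0.09, SAM2 at -0.04 and SAM4 at -0.03 were the smallest. Both 2xDbp1 libraries were below both Ded1 libraries for 8 of the 10 genes, against 21.4% of all genes, and the median was -0.54, against +0.03 for all genes. MET2, MET17 and MHT1 were picked as lower than these same Ded1 libraries, so the count and median are not independent of the choice. Of the genes not behind the pick, MET6, SAM1, SAH1, MUP1 and MMP1 were below, while SAM2 and SAM4 overlapped. With 1 library left out, the log2 fold change ran from -1.07 to -0.81 for MET2, -1.34 to -0.91 for MET17 and -1.13 to -0.83 for MET6. Whether these genes passed depended on the library left out. Among these fits they passed only when a Dbp1 library, which is not part of this comparison, was left out.

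**Figure D2:**
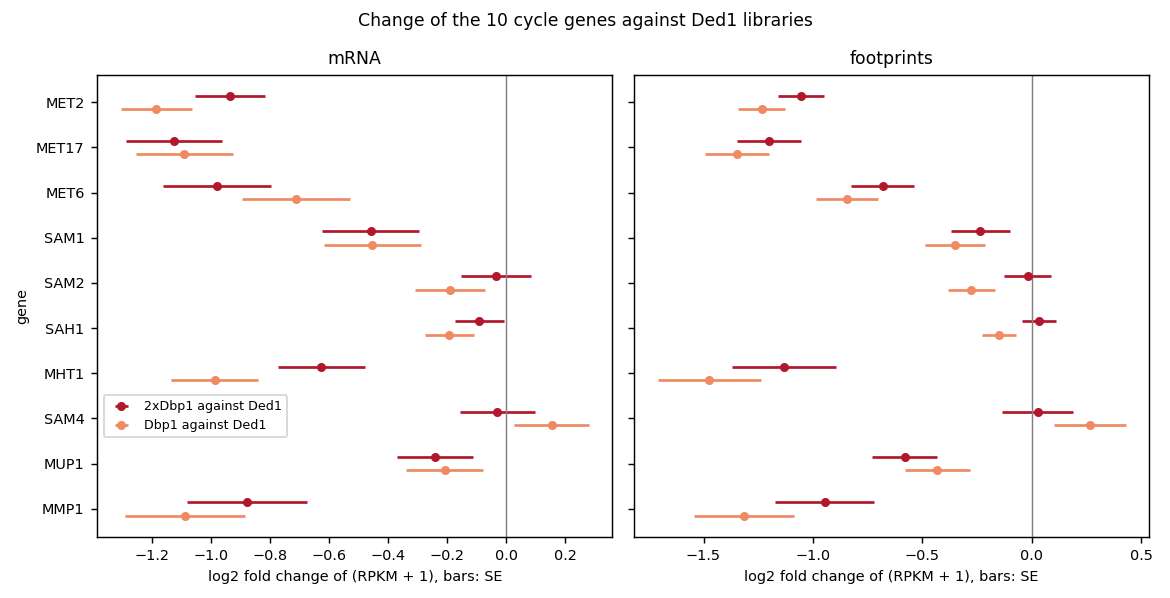
Log2 fold changes of the 10 genes (x axis, log2 of RPKM + 1) in mRNA, left, and footprints, right, for 2xDbp1 against Ded1 and Dbp1 against Ded1. Points are fitted values from limma of 2 libraries against 2, bars are SE, and the same Ded1 libraries stand in both comparisons. MET17 is at -1.13 in mRNA and -1.20 in footprints in 2xDbp1 against Ded1, while SAM4 is at -0.03 and +0.03.

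The second comparison asks whether more DBP1 changes the levels of the cycle. It sets 2xDbp1 against Dbp1 cells, and shares its Dbp1 libraries with the comparison that chose the group. None of the 10 genes passed in mRNA, where 0.0192% of 5198 genes were called by limma, 1 gene (TRP1), and 404 had an unadjusted p under 0.05. No gene was called in footprints (0.0% of 4830 by limma, with 438 at an unadjusted p under 0.05). In mRNA MHT1 was at +0.36 on the log2 scale (95% interval 0.02 to 0.71, limma adjusted p = 0.629) and MET2 at +0.25 (-0.03 to 0.53). MET17 was at -0.04 with an interval from -0.42 to 0.35, so a difference of the size seen against Ded1 (-1.13) lies outside it. MET6 had the lowest mRNA value, -0.27, with an interval from -0.70 to 0.16. In footprints, MMP1 again left out, 7 of 9 genes were above 0, against 2505 of all 4830 genes, led by MHT1 at +0.34 and SAM2 at +0.26. The 7 include MET2, MET17 and MHT1, which were picked as low in these same Dbp1 libraries. A shift above 0 was expected for them from the choice, and the count and medians are not independent of it. Of the genes not behind the pick, MET6, SAM1, SAM2 and SAH1 were above 0. MUP1 at -0.15 and SAM4 at -0.24 were below 0, and limma adjusted p for the 10 genes ran from 0.555 to 0.809. The median was +0.16 in footprints for these 9 genes and +0.05 in mRNA for all 10, against +0.01 and -0.01 for all genes.

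Dbp1 against Ded1 is the contrast that chose the group, and its values are given as a description. In mRNA the log2 fold changes were -1.19 for MET2 (SE 0.12), -1.09 for MET17 (SE 0.163), -1.09 for MMP1 (SE 0.203) and -0.99 for MHT1 (SE 0.147). MET6 was at -0.71, SAM1 at -0.45, MUP1 at -0.21, SAH1 and SAM2 at -0.19, and SAM4 at +0.15. In footprints they were -1.47 for MHT1, -1.35 for MET17, -1.31 for MMP1, -1.23 for MET2 and -0.84 for MET6, and SAM4 was at +0.26. The threshold took in 3 genes in mRNA (1.52% of all genes called) and 5 in footprints (3.31% of all genes called), and nothing is read from these counts, since the contrast chose the genes. In mRNA MHT1 (-0.99) and MET17 (-1.09) were the nearest genes inside it and MMP1 (-1.09) the nearest outside. In footprints MMP1 (-1.31) and MET6 (-0.84) were the nearest inside, and no gene lay close to it on the outside, where MUP1 (-0.43) came next. MMP1 met the footprint minimum mean only through its Ded1 libraries. The count in mRNA was between 0 and 6 when 1 library was left out, being 0 without Dbp1 replicate 1, without Ded1 replicate 1 or without Ded1 replicate 2, 1 without either 2xDbp1 library, and 6 without Dbp1 replicate 2. In footprints it was 2 without any 1 library other than Dbp1 replicate 2, without which it was 5.

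Footprints per mRNA showed no called difference for any of the 10 genes. In 2xDbp1 against Ded1 the footprint and mRNA fold changes were close for MET2 and MET17, and further apart for MHT1, MUP1 and MET6. MET17 had 2.57 and 2.32 footprints per mRNA in 2xDbp1, 2.19 and 2.12 in Dbp1, and 2.60 and 2.53 in Ded1 libraries. MET2 had 0.384 and 0.461 in 2xDbp1, 0.429 and 0.448 in Dbp1, and 0.459 and 0.488 in Ded1 libraries. The ranges of MET2 and MET17 in 2xDbp1 and Ded1 touched or overlapped. MHT1 had 0.617 and 0.544 footprints per mRNA in 2xDbp1, 0.489 and 0.682 in Dbp1, and 0.780 and 0.941 in Ded1 libraries, with Ded1 highest. MUP1 had 0.903 and 0.859 in 2xDbp1, 0.902 and 1.01 in Dbp1, and 1.10 and 1.13 in Ded1 libraries. MET6 had 6.16 and 5.02 in 2xDbp1, 4.43 and 3.81 in Dbp1, and 4.46 and 4.47 in Ded1 libraries, so its highest libraries were the 2xDbp1 ones.

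The difference in translational efficiency, footprint minus mRNA log2 fold change, was tested as the interaction of genotype and library type. This main fit did not pair same-numbered mRNA and footprint libraries, so its intervals include spread that the pairs share. An alternative fit with these pairs as a block also called none of the 10 genes. In 2xDbp1 against Ded1 the difference was -0.50 for MHT1 (95% interval -1.16 to 0.15), -0.34 for MUP1 (-0.81 to 0.14) and +0.30 for MET6 (-0.28 to 0.88). These values had ranks 51, 218 and 4547 from the lowest of 4785 genes, and each interval included 0. MET17 was at -0.08 (-0.61 to 0.46) and MET2 at -0.12 (-0.44 to 0.20). None of the 10 passed, with limma adjusted p from 0.98 to 1.0, where 0.0418% of 4785 genes were called and 5.12% had an unadjusted p under 0.05. In 2xDbp1 against Dbp1, where 0.0% were called and 172 genes had an unadjusted p under 0.05, MET6 was highest at +0.43 (-0.15 to 1.01). The median of the 10 genes was -0.03 in 2xDbp1 against Ded1 and +0.09 in 2xDbp1 against Dbp1. It includes MMP1, which met the footprint minimum mean only through its Ded1 libraries, so nothing is read from it. For MMP1, the other gene with few reads, the 2xDbp1 against Ded1 95% interval ran from -0.73 to 0.59, so the direction of any change was not settled.

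**Figure D3:**
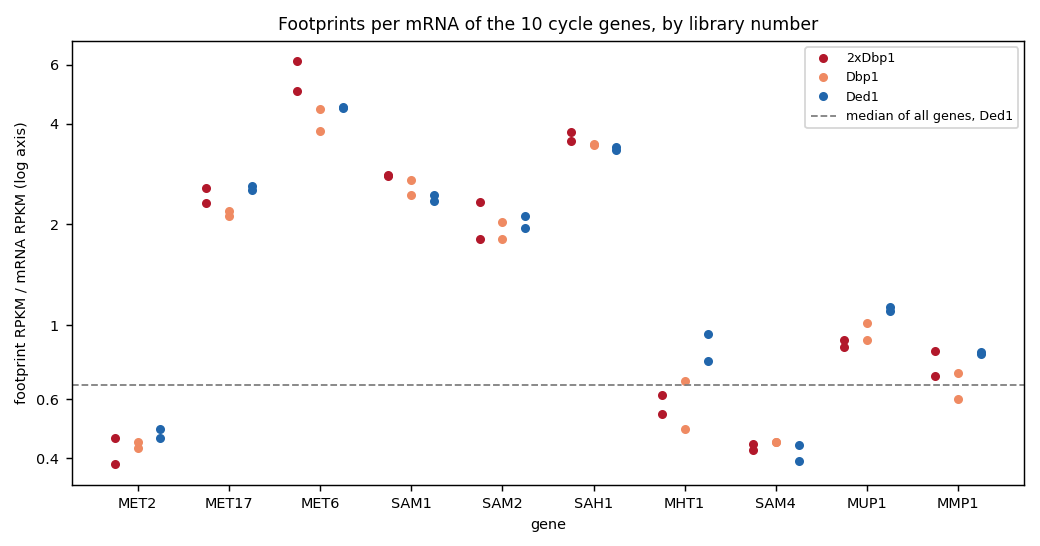
Footprints per mRNA (ratio of RPKM values, log axis) of the 10 genes in each pair of same-numbered libraries, with 2xDbp1, Dbp1 and Ded1 from left to right for each gene. Points are single pairs, and the dashed line is the median of 4785 genes in Ded1, 0.662. MET6 and SAH1 lie highest and SAM4 and MET2 lowest in all 3 genotypes.

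Replicate spread differed between the genes. Between replicates of 1 genotype the largest log2 difference in mRNA was 0.52 for MET6 and SAM1 and 0.425 for MET17, against a median over all genes of 0.109 to 0.132. It was 0.26 for MET2 and 0.09 for SAH1. In footprints MHT1 differed by up to 0.62 and MMP1 by up to 0.52, against 0.06 for MET2. MET2 thus had the smallest replicate difference of the 10 genes in footprints.

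Likeness was measured as the root-mean-square difference between centred log2(RPKM + 1) profiles over the 6 mRNA libraries, among 4853 genes with a mean of at least 10 RPKM. It is a description and rests on 6 points that share library depth and genotype. MET2, MET17 and MHT1 were picked as lower in the Dbp1 than in the Ded1 libraries, which are among the 6. Their likeness to each other was thus expected from the choice. For MET2 the closest genes were MHT1 (0.148), MET17 (0.227), MXR1 (0.227), MET5 (0.256) and MET14 (0.261), against a spread of its own profile of 0.517. For MET17 they were MET6 (0.172), MET5 (0.208), MET2 (0.227), MET16 (0.237) and MXR1 (0.266). For MHT1 they were MXR1 (0.148), MET2 (0.148), MET14 (0.162), AAH1 (0.184) and YBL039C-A (0.19). MET5, MET14 and MET16 encode sulfite reductase, adenylylsulfate kinase and phosphoadenylylsulfate reductase of sulfate reduction, MXR1 a methionine sulfoxide reductase, and AAH1 adenine deaminase. MXR1 is also the neighbour of SAH1 in the R64 gene table. SAM2, SAH1, SAM4 and MUP1 were far down the order for MET2, at rank 1106, 621, 3310 and 534. For MHT1, MET17 was at rank 93 and MET6 at rank 266. MMP1 was not ranked because its mRNA mean is below 10 RPKM.

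The genes that feed the cycle or use its product were counted from lists. For the counts past the threshold in 2xDbp1 against Ded1 mRNA given below, the share over all 5198 genes was 0.077%. Sulfate uptake and reduction supplies the sulfide, and 7 of its 9 genes met the minimum mean in mRNA. In 2xDbp1 against Ded1 0 of these 7 passed, 6 were below Ded1 in both libraries, where 21.4% of all genes were, and the median was -0.43. MET16 had the largest difference, 29.2 and 32.2 RPKM in 2xDbp1 against 45.4 and 71.3 RPKM in Ded1 libraries (log2 fold change -0.87, SE 0.197, limma adjusted p = 0.215). In Dbp1 against Ded1 MET14 was the 1 gene of this list past the threshold in mRNA (-0.62), where 1.52% of all genes were called. In footprints MET5 (-1.32) and MET14 (-1.02) were past it, where 3.31% of all genes were called. Homoserine supply had 0 of 3 genes called and a median of -0.02 in 2xDbp1 against Ded1 mRNA, HOM2 (aspartate semialdehyde dehydrogenase) being at -0.09. Of 4 transsulfuration genes 0 passed (median -0.31), and STR3, cystathionine beta-lyase, was at -1.34 (SE 0.296, limma adjusted p = 0.215) with 3.99 and 4.39 RPKM in 2xDbp1 against 9.02 and 16.2 RPKM in Ded1 libraries.

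The folate pathway supplies the methyl group that MET6 uses. All 7 of its measured genes were below Ded1 in both 2xDbp1 mRNA libraries, where 21.4% of all genes were, and 0 passed (median -0.21). SHM2, cytosolic serine hydroxymethyltransferase, was at -0.72 (SE 0.384, limma adjusted p = 0.415). In methionine salvage, polyamine synthesis and adenosine removal, 0 of 9 genes passed (median -0.17), with ADI1, acireductone dioxygenase, at -0.29. In Dbp1 against Ded1 footprints ADI1 (-0.44) and MEU1, methylthioadenosine phosphorylase (-0.39), were past the threshold, where 3.31% of all genes were called. Of the other sulfur compound transporters 0 of 3 passed (median -0.28), with SAM3, the SAM permease next to SAM4 in the R64 gene table, at -0.40. Of Met4 and 5 partners 0 of 6 passed (median -0.16). MET4 mRNA averaged 48.1 RPKM in 2xDbp1, 52.1 RPKM in Dbp1 and 48.0 RPKM in Ded1 libraries, and the largest difference was MET32, a DNA-binding partner of Met4, at -0.37 (limma adjusted p = 0.264).

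The lipid methylation list holds OPI3 and CHO2, which consume SAM to make phosphatidylcholine, and ERG6, which does so in ergosterol synthesis. OPI3, a phospholipid methyltransferase, had 286 and 338 RPKM in 2xDbp1, 393 and 203 RPKM in Dbp1, and 121 and 112 RPKM in Ded1 mRNA libraries. All 4 OPI3 libraries with DBP1 were above both Ded1 libraries. OPI3 was at +1.41 in 2xDbp1 against Ded1 (SE 0.271, limma adjusted p = 0.178), and 0 of the 3 genes passed. CHO2 was at +0.65, which is also the median of the list, and ERG6 at -0.08. Amino acid genes outside sulfur that Gcn4 activates had 0 of 14 past the threshold and a median of -0.16 in 2xDbp1 against Ded1 mRNA, HIS5 (histidinol-phosphate aminotransferase) being at -0.41. In Dbp1 against Ded1 their median was +0.29, with 0 called, where 1.52% of all genes were. The general stress genes had 0 of 12 past the threshold in 2xDbp1 against Ded1 mRNA (median +0.73), where 0.077% of all genes were called. In Dbp1 against Ded1 mRNA 8 of the 12 were past it, where 1.52% of all genes were called, HSP12 being the largest at +3.79. DDR2, 1 of the 12, had 34.4 and 5.06 RPKM in Dbp1 and at most 4.55 RPKM in any other mRNA library. It met the minimum mean only through its Dbp1 libraries. In 2xDbp1 against Dbp1 none of these lists had a called gene in mRNA, with a median of -0.14 for sulfate uptake and reduction, -0.41 for the Gcn4 genes and -0.68 for the stress genes.

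**Figure D4:**
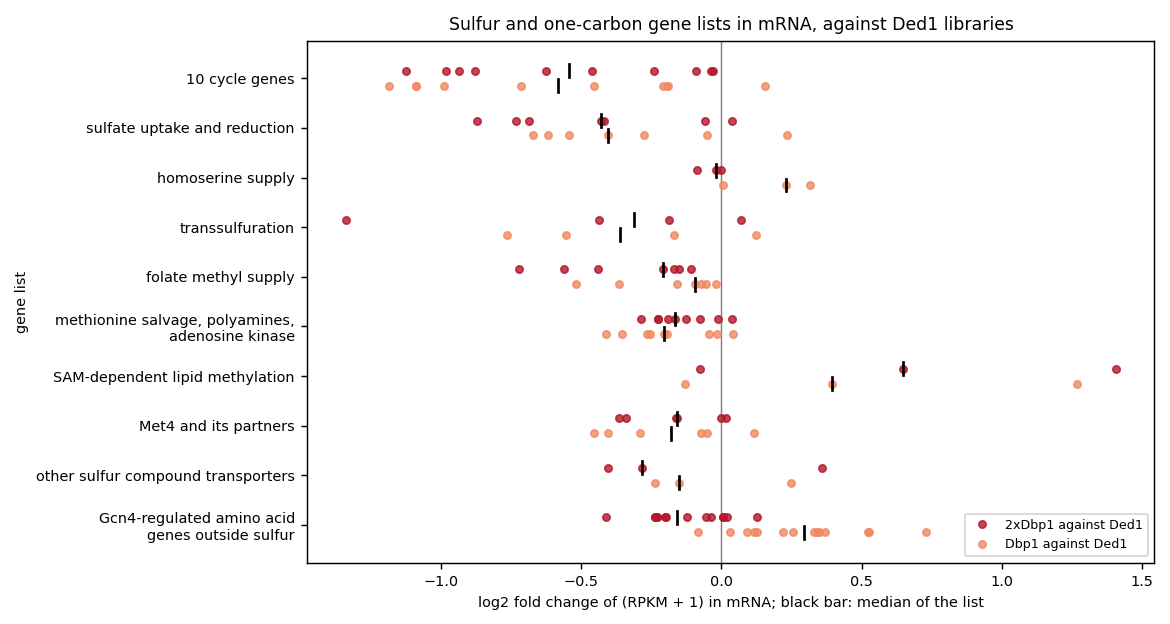
Log2 fold changes in mRNA (x axis, log2 of RPKM + 1) of the tested genes of each list, for 2xDbp1 against Ded1 and Dbp1 against Ded1, which share the Ded1 libraries. Points are genes and black bars are list medians. The 10 cycle genes have medians of -0.54 and -0.58, and the point furthest to the right is OPI3, at +1.41 in 2xDbp1 against Ded1.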

How the data were processed

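The deposited table gives 1 value per gene and library. Size selection kept 28 to 31 nt for footprints and 50 nt for mRNA, per the labels' protocols. The submitters' processing notes name CASAVA, Bowtie2 and bcl2fastq 2.17. For their roles, the build and how reads were counted, the sources used here give nothing. The authors' deposited values were read as RPKM from the values themselves, because for low genes the value times (length - 60 nt) falls on whole steps in each library. Up to 200 reads, 83.98% to 87.79% of values were whole within 0.02 reads, and the inferred depths follow from these steps. The R64 gene table gave a name and length for 5637 of 6159 IDs.

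From these values limma 3.58.1 in R 4.3.3, with a trended prior, modelled log2(RPKM + 1) over 6 libraries of a type, with 3 genotypes sharing 1 spread. The minimum mean was 5 RPKM, applied to both types for translational efficiency, where the test was genotype by library type in 1 model of all 12 libraries. All 10 cycle genes passed, MMP1 footprints only through the Ded1 libraries. A call was a 2-sided p under 0.05 after Benjamini-Hochberg adjustment over the 5198 mRNA, 4830 footprint or 4785 translational efficiency genes. The fit was tested on simulated data. Software was Python 3.11.15 with numpy 2.4.6, pandas 2.3.3 and matplotlib 3.10.9.

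Same-numbered mRNA and footprint libraries of a genotype deviated together (r = 0.417 for 2xDbp1, 0.657 for Dbp1 and 0.533 for Ded1, across genes), so these pairs were a block in an alternative fit of translational efficiency. The cycle genes and the lists were chosen with earlier results of these data known. Named are the 10 genes, up to 4 called genes per list (if none, the gene with the largest mRNA difference), and the 5 genes most like MET2, MET17 and MHT1. OPI3, STR3 and the other list genes follow that rule, while MET4 was named after its values were seen. No sequences are shown.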

Additional observations from a re-analysis of the deposited data

How the results depend on the processing

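The count of cycle genes past the threshold depended on the settings where Ded1 was the comparison. In 2xDbp1 against Ded1 mRNA it was 0, and 1 with a minimum mean of 20 RPKM, 1 with libraries rescaled by median ratio, 2 with the replicate block, 3 with only the 2 genotypes compared, and 0 to 3 when 1 library was left out. In footprints it was 1 (MET2), and 0 with no filter, 0 with a minimum of 20 RPKM, which drops MET2, 2 with only the 2 genotypes, and 0 to 2 when 1 library was left out. In Dbp1 against Ded1 mRNA it was 3, and 1 with only the 2 genotypes and 0 to 6 when 1 library was left out. In footprints it was 5, and 3 with no filter, 2 with a minimum of 20 RPKM, 2 with only the 2 genotypes and 2 to 5 when 1 library was left out. Fits of 2 genotypes or with 1 library left out hold fewer samples, and a minimum of 20 RPKM fewer genes. For the other settings the cause was not tested. No cycle gene passed in 2xDbp1 against Dbp1 or in translational efficiency under any setting run.

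Over all genes, 79 were called in Dbp1 against Ded1 mRNA and 2 to 204 under the alternatives, 160 in footprints and 22 to 244, 4 in 2xDbp1 against Ded1 mRNA and 3 to 27, 3 in footprints and 2 to 22, and 1 in 2xDbp1 against Dbp1 mRNA and 1 to 6. Replicate numbers were not taken to pair genotypes in the main fits, and same-numbered libraries deviated together to a degree that differed by pair. In mRNA their deviations correlated at -0.107 between 2xDbp1 and Dbp1, 0.325 between 2xDbp1 and Ded1 and 0.166 between Dbp1 and Ded1. In footprints the values were -0.071, 0.355 and 0.191 for the same pairs. Same-numbered 2xDbp1 and Ded1 libraries thus deviated together in part. With the replicate block, limma adjusted p in 2xDbp1 against Ded1 was 0.0189 for MET17 and 0.037 for MET6 in mRNA, and 0.0463 for MET17 and 0.0638 for MET2 in footprints. The crossed replicate block for 2xDbp1 against Dbp1 mRNA, chosen after seeing the data, called 0 cycle genes and 2 genes in all. With same-numbered pairs as the replicate block, translational efficiency again gave 0 cycle genes, and 5 in place of 2 genes in all for 2xDbp1 against Ded1.

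Differences near 0 changed sign, none of them called. SAM1 mRNA in 2xDbp1 against Dbp1 was 0.004 when rescaled, and MET2 translational efficiency in 2xDbp1 against Ded1 was 0.009 with a pseudocount of 5. With 1 library left out, 2xDbp1 against Ded1 ranged in mRNA from -0.196 to 0.123 for SAM2 and -0.174 to 0.115 for SAM4, in footprints from -0.114 to 0.075 for SAM2, -0.027 to 0.091 for SAH1 and -0.184 to 0.236 for SAM4, and in translational efficiency from -0.244 to 0.007 for MET2, -0.167 to 0.2 for SAM2, -0.02 to 0.131 for SAM4 and -0.161 to 0.027 for MMP1. 2xDbp1 against Dbp1 ranged in mRNA from -0.186 to 0.116 for MET17, -0.264 to 0.251 for SAM1, -0.006 to 0.313 for SAM2 and -0.081 to 0.014 for MUP1, in footprints from -0.066 to 0.299 for SAM1, and in translational efficiency from -0.196 to 0.055 for MET2, -0.08 to 0.287 for SAM2 and -0.219 to 0.179 for MHT1. A planned count of promoter motifs was not run.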
